A study of Mus musculus with 94 samples.

Results

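The comparison asked whether 3 days without WAPL gave a different transcript response early and late in differentiation of 1 mouse embryonic stem cell clone. It used 8 of the 94 samples of the series: the poly(A) RNA-seq libraries of clone H7, in which both members of a DMSO and dTAG-13 pair carry the same replicate number. A response is the log2 ratio of dTAG-13 over DMSO within a pair, and the quantity described here is the response on days 7-10 (late window) minus the response on days 4-7 (early window). The table of days 4-7 held 24421 genes, that of days 7-10 held 14997 of the same genes, and 14324 passed the filter on low counts.

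All 8 libraries came from CAST/Ei x 129/Sv/Jae stem cells that the labels call Tsix-stop and that carry WAPL fused to an FKBP degron, a tag that lets the small molecule dTAG-13 send the fusion protein to degradation. The early groups received DMSO or 500 nM dTAG-13 for 3 days and were harvested on day 7 (2 libraries each). The late groups received the same for 3 days and were harvested on day 10 (2 libraries each). The DMSO controls carry the degron too. Clone H7 is a single clone, so nothing here separates the clone from the genotype. Undifferentiated cells were kept on irradiated feeder fibroblasts, and differentiation ran as embryoid bodies, aggregates that form several embryonic cell types, first in suspension and later attached to gelatin. The labels do not say whether replicates came from different cultures. The p-values therefore reflect the spread among these libraries alone, which may be technical.

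As background, cohesin is a ring complex that folds chromatin by extruding loops until it meets CTCF bound to DNA, and WAPL opens the ring and releases it. Without WAPL, cohesin stays longer on chromatin and loops grow. Polycomb complexes keep developmental regulators such as Hox genes silent in stem cells, and many of these regulators are switched on as embryoid bodies form mesoderm, endoderm and other lineages.

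Total counts per library ran from 12076585 to 35388461, and a floor of 3 counts corresponded to 0.0849 to 0.245 CPM, the unit for counts scaled to library size, which covers counting error only. Of 5 stem cell and epiblast markers all were measured, and their summed level was 2363 and 2431 CPM with DMSO and 1901 and 1556 CPM with dTAG-13 on day 7, against 2107 and 1553 CPM and 1441 and 1025 CPM on day 10. Neither Afp nor Ttr, 2 of the 4 endoderm markers, was in both tables. Wapl mRNA did not check the labels, since the degron acts on protein: it stood at 772 and 857 CPM with DMSO and 773 and 935 CPM with dTAG-13 on day 7, and at 621 and 809 CPM and 642 and 788 CPM on day 10. Levels set side by side across days come from 2 tables that may have been made differently, whereas each response lies within 1 table.

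In the main fit most genes called late were called early too, in the same direction. A smaller share of the early calls were called late, which follows from the larger number of early calls in that fit. In 1 fit with a term for each pair, 1853 genes rose (12.9% of those tested) and 1316 fell (9.19%) on days 4-7, and 1210 rose (8.45%) and 849 fell (5.93%) on days 7-10 (edgeR quasi-likelihood test, Benjamini-Hochberg adjusted p under 0.05). Of these, 1473 genes were called in the same direction in both windows, which was 46.5% of the early calls and 71.5% of the late calls. They comprised 906 rises (6.33% of all tested genes) and 567 falls (3.96%). Which window had more calls, and so the order of these shares, depended on the fit and the genes tested. Each window fitted alone gave 2771 calls early and 5141 late. Those fits used the libraries of 1 window and all genes of its own table that passed the filter. Their gene sets thus differed from each other and from the main fit. The fitted response was larger early in 963 of the 1473 and larger late in 510. At least 2-fold rises numbered 493 early and 226 late, and 2-fold falls 144 and 112. The SD of the pair responses over all genes was 0.50 and 0.53 early and 0.46 and 0.40 late. These counts depended on the pair terms. Without them 171 genes were called early and none late, with edgeR. Leaving out 1 pair leaves a window with 1 pair, whose spread is then not measured, so such counts are not used to judge stability.

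Across the 14324 genes the fitted responses of the windows, which share no library, had a Pearson r of 0.72 and a Spearman rho of 0.72. This is a description across genes, which are no replicates. Between single pairs r was 0.67 within the early window, 0.68 within the late window and 0.58 to 0.63 across windows. By rank the order was another: rho was 0.54 within the early window, below the 0.57 to 0.61 across windows, and 0.69 within the late window. A total of 7233 genes (50.5%) had the same sign in all 4 pairs, 3602 above and 3631 below 0.

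**Figure D1:**
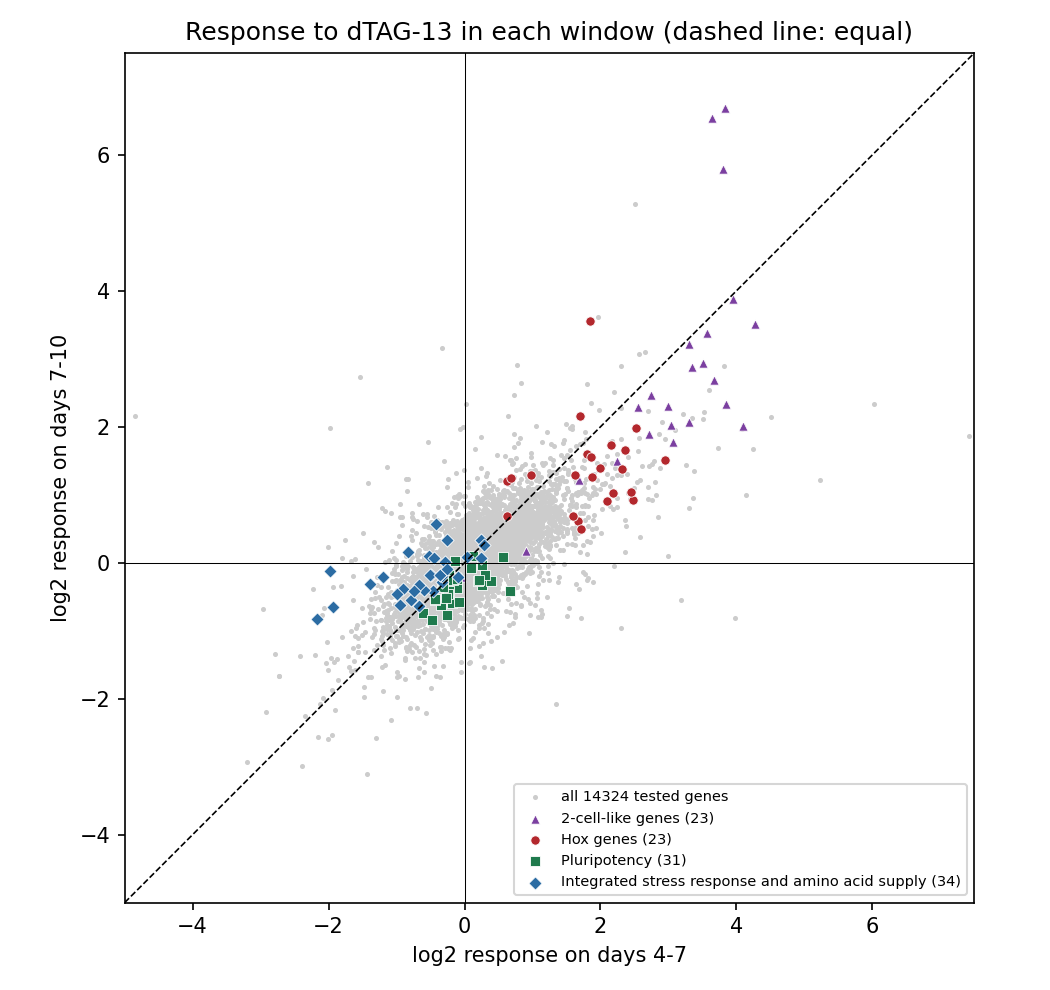
Fitted log2 response on days 4-7 (x axis) against days 7-10 (y axis) for 14324 genes (grey), with 4 gene lists coloured and the line of equal response dashed. Most Hox and 2-cell-like genes lie to the right of 0 and below the line. Of the stress response genes most lie left of 0 and most lie above the line. High above it lie 3 2-cell-like genes with no count in day 10 DMSO libraries.

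The genes named for a shared response had the same sign in all 4 pairs and the largest smallest pair response. Some of them still differed in size between the windows, though none by the test of the difference. Spon1, which encodes the matrix protein spondin 1, stood at 31.3 and 29.7 CPM with DMSO and 4.03 and 3.96 CPM with dTAG-13 on day 7. It stood at 35.1 and 18.7 CPM and at 6.21 and 4.9 CPM on day 10. It fell in both windows, with responses of -2.93 and -2.19. Myb, a transcription factor of blood progenitors, fell by 1.48 early and by 1.82 late. Gli1, a target and effector of Hedgehog signalling, had responses of -1.61 and -1.57, and Skida1 of -1.67 and -1.59, so these falls differed by less than 0.1 between windows. Among shared rises, Lingo1, a neuronal membrane protein gene, went from 3.23 and 2.45 to 9.87 and 9.52 CPM on day 7 and from 5.23 and 6.21 to 19.3 and 24.1 CPM on day 10, with responses of 1.77 and 1.92. The protocadherin gene Pcdh10 rose by 2.57 and 3.07, and the homeobox gene Barx1 by 2.21 and 2.51. The retinaldehyde dehydrogenase gene Aldh1a2 rose by 2.41 early and 1.55 late. Sall1, a zinc finger regulator from the fixed set of genes, fell by 1.20 and 0.95.

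One gene passed the test of the difference itself. Nrp1 on chromosome 8 encodes neuropilin 1, a co-receptor for VEGF and semaphorins. It stood at 2.35 and 2.45 CPM with DMSO and at 7.5 and 10.5 CPM with dTAG-13 on day 7, and at 27.1 and 69.7 CPM and at 25.7 and 51.5 CPM on day 10. The treated libraries of day 7 were thus above both of their controls and below every day 10 library, and on day 10 the groups overlapped. It rose by 1.89 early and had a response of -0.28 late, a difference of -2.17 (SE 0.212, edgeR quasi-likelihood test, adjusted p = 0.0124). It was the only call: 0 of 14324 genes were called with a higher late response (0%) and 1 with a lower one (0.00698%), while 1018 genes (7.11%) had an unadjusted p under 0.05, 376 with a higher and 642 with a lower late response. DESeq2 with the same terms called 4 higher and 11 lower. Without the pair terms Nrp1 did not pass (difference -2.25, adjusted p = 0.9999, with edgeR) and no gene did, with 209 at an unadjusted p under 0.05. No gene passed either with a replicate block shared by both windows. The difference of Nrp1 was -2.41, -1.98, -2.33 and -1.98 without early pair 1, early pair 2, late pair 1 or late pair 2. Those fits leave a window with 1 pair, whose spread is not measured, so no p-value or call of Nrp1 from them is given. With RLE scaling and with library totals the adjusted p of Nrp1 was 0.0205 and 0.0259 by the edgeR test.

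Because so few differences passed, the genes below were ranked by the p of the difference among those whose late pair responses both lay on 1 side of both early ones. The rule chose them for this pattern, so the pattern supports nothing by itself. Over all tested genes 2352 (16.4%) had both late pairs above both early pairs and 2590 (18.1%) had both below.

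The promoter bases of Nrp1 and of 2 genes with the opposite difference, Vldlr and Cxcl12, are given to show what stands before these starts. They are the 250 bases before the annotated start in RefSeq (build GRCm38.p6), 5′ to 3′ on the plus strand, with CG dinucleotides in capitals. Positions are chr8:128358823-128359072 for Nrp1, chr19:27216234-27216483 for the first of 2 listed starts of Vldlr, and chr6:117168285-117168534 for Cxcl12.
Nrp1: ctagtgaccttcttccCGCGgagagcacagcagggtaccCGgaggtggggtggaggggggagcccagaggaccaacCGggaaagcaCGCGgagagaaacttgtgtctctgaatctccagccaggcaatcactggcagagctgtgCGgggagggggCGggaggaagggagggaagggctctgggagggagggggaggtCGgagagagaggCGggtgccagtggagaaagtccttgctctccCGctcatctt
Vldlr: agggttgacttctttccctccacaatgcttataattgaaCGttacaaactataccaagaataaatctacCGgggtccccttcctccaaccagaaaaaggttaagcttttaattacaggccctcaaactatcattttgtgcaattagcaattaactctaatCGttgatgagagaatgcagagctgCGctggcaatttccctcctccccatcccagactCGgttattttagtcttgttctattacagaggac
Cxcl12: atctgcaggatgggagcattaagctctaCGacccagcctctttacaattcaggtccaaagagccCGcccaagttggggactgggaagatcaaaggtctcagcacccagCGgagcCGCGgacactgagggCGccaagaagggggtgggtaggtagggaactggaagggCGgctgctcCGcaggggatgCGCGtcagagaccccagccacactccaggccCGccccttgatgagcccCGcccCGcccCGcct
These windows hold 11, 5 and 14 CG dinucleotides, and the window of the second Vldlr start holds 18, against a median of 15 over the 13657 such windows of 10696 tested genes. Of the 24 genes ranked for the difference, 15 had a window in the table, and the median over their 27 windows was 11.

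All 12 genes ranked with a lower late response rose early. Late, 6 of them rose less, Sox17 and Col23a1 fell, and 4 were not called. Sox17, an endoderm and endothelial transcription factor, stood at 1.08 and 0.432 CPM with DMSO and 2.69 and 2.3 CPM with dTAG-13 on day 7, but at 18.6 and 18.4 CPM and 8.99 and 11.8 CPM on day 10. The treated libraries lay above the controls early and below them late, without overlap. It rose by 1.71 and then fell by 0.82, a difference of -2.53 (adjusted p = 0.0625, not called). The growth factor gene Igf2 stood at 45.7 and 51.5 CPM with DMSO and 98.4 and 131 CPM with dTAG-13 on day 7, and at 132 and 225 CPM and 161 and 215 CPM on day 10, where the groups overlapped. Its responses were 1.23 and 0.10 (difference -1.12, adjusted p = 0.0625). Tbx2, a T-box repressor and Polycomb target, stood at 0.934 and 0.911 CPM with DMSO against 6 and 6.65 CPM with dTAG-13 on day 7, and at 3.3 and 4.7 CPM against 6.54 and 8.66 CPM on day 10. It rose in both windows, by 2.76 and 0.92 (difference -1.84, adjusted p = 0.073). Treated levels of Tbx2 were thus close to each other on the 2 days while the control levels were not.

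Most other genes of this group, Ets1 and Mgll excepted, code for proteins of the cell surface, matrix and signalling. Cav1, the main protein of caveolae, rose by 1.63 and 0.52, and Chn2, a Rac-regulating protein gene, by 1.62 and 0.44. Ets1, a transcription factor of endothelium and lymphocytes, rose by 1.38 and 0.47, and the guidance cue gene Ntn1 had responses of 0.96 and -0.11. Each of these 4 differences had adjusted p = 0.0687. The monoglyceride lipase gene Mgll (2.24 and 0.82), the X-linked ephrin gene Efnb1 (1.16 and 0.30) and the receptor gene Gprc5a (1.44 and 0.63) also had a smaller late response. Col23a1, a membrane collagen gene, turned from a rise of 1.13 to a fall of 0.80, at 2.01 and 0.863 CPM with DMSO on day 7 and 16.9 and 23.5 CPM on day 10.

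**Figure D2:**
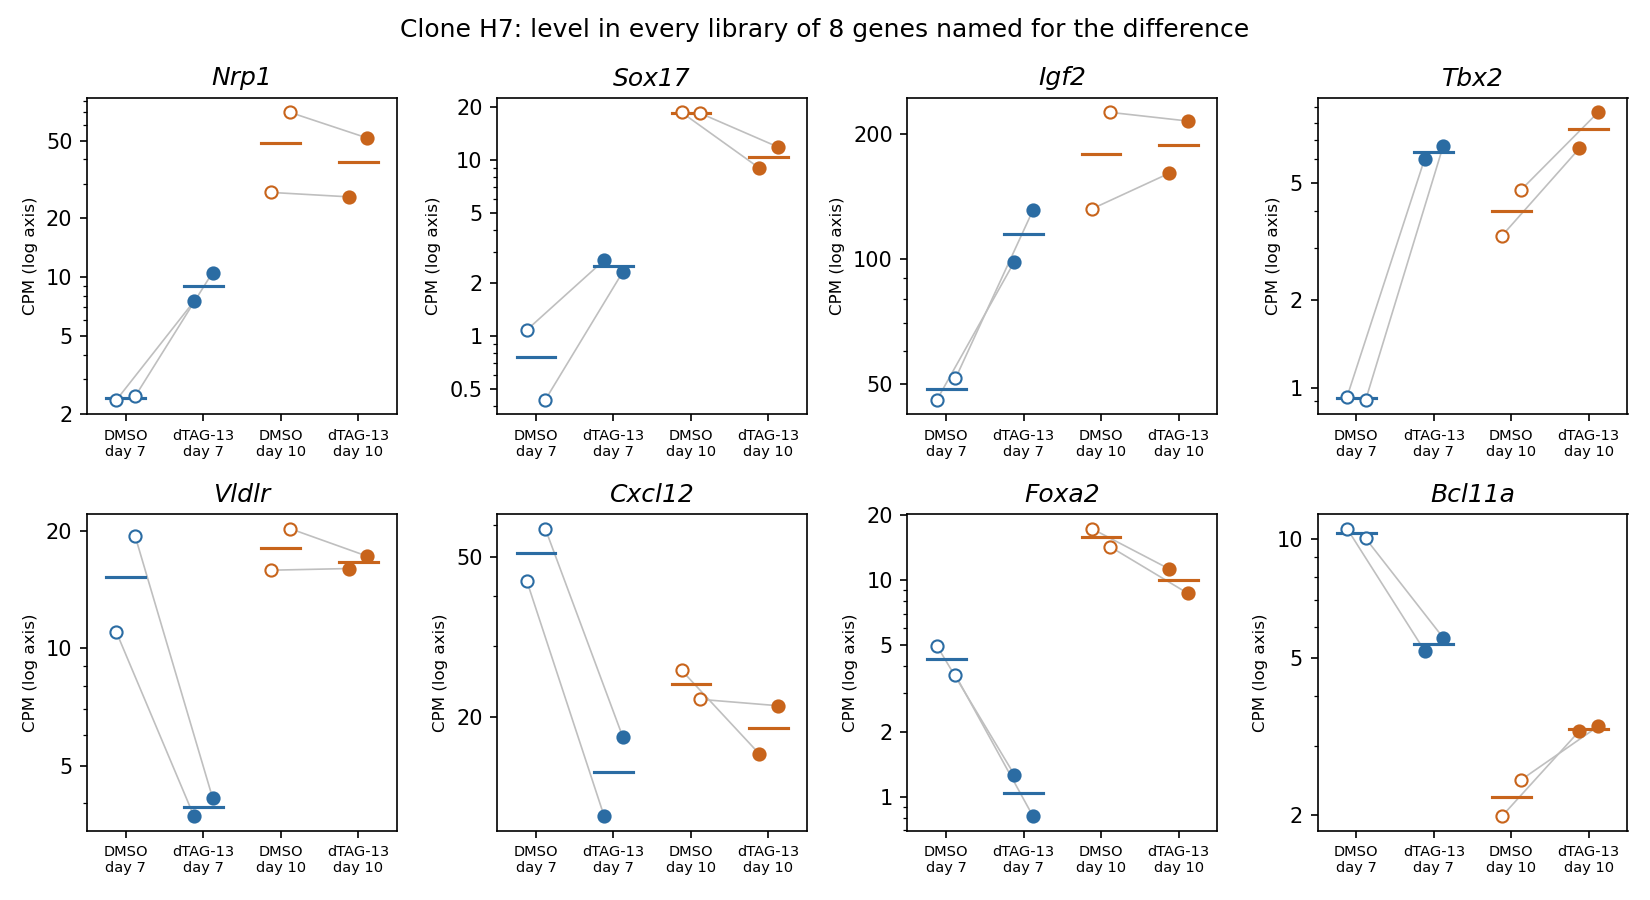
Level of 8 genes in CPM (log axis) in each library, with open circles for DMSO, filled circles for dTAG-13, blue for day 7, orange for day 10, a bar at the mean of 2 libraries and grey lines joining pairs. Nrp1 and Igf2 separate by treatment on day 7 and overlap on day 10, and Sox17 lies higher with dTAG-13 on day 7 and lower on day 10.

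Of the 12 genes ranked with a higher late response 10 fell early. Late, 3 of these fell less and the others were not called. Vldlr, a lipoprotein and reelin receptor gene that is also a target of the integrated stress response, stood at 11 and 19.4 CPM with DMSO and 3.71 and 4.14 CPM with dTAG-13 on day 7, and at 15.9 and 20.3 CPM and 16 and 17.2 CPM on day 10. It was low in the 2 treated libraries of day 7 alone. It fell by 1.97 early and had a response of -0.12 late (difference 1.85, SE 0.23, adjusted p = 0.0588, not called). The chemokine gene Cxcl12 stood at 43.7 and 58.8 CPM with DMSO and 11.4 and 17.9 CPM with dTAG-13 on day 7, and at 26.2 and 22.2 CPM and 16.3 and 21.4 CPM on day 10. It fell by 1.81 early and had a response of -0.34 late (difference 1.47, adjusted p = 0.0625). The treated libraries were below their controls in every pair, by little in late pair 2 (-0.05).

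Foxa2, a pioneer factor of endoderm and axial mesoderm, stood at 4.98 and 3.65 CPM with DMSO and 1.26 and 0.814 CPM with dTAG-13 on day 7, and at 17.3 and 14.3 CPM and 11.3 and 8.7 CPM on day 10. It fell in both windows, by 2.07 and 0.67 (difference 1.40, adjusted p = 0.164). Bcl11a, a zinc finger repressor of blood and neural cells, fell by 0.92 early and had a response of 0.56 late. The signalling gene Fgf8 fell by 1.32 and 0.43, and the mitochondrial enzyme gene Pck2 by 1.93 and 0.65. Vegfa, whose product binds the receptor complex that contains neuropilin 1, fell by 0.94 early and had a response of -0.25 late. Tmem151a was not called early (0.07, with 12.4 and 10.2 CPM with DMSO, 13.7 and 10.2 CPM with dTAG-13) and rose by 0.88 late (14.4 and 11.7 CPM against 25.2 and 22.6 CPM). St6galnac6, Fam84b and Fst fell by 1.01, 1.02 and 0.48 early and were not called late.

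**Figure D3:**
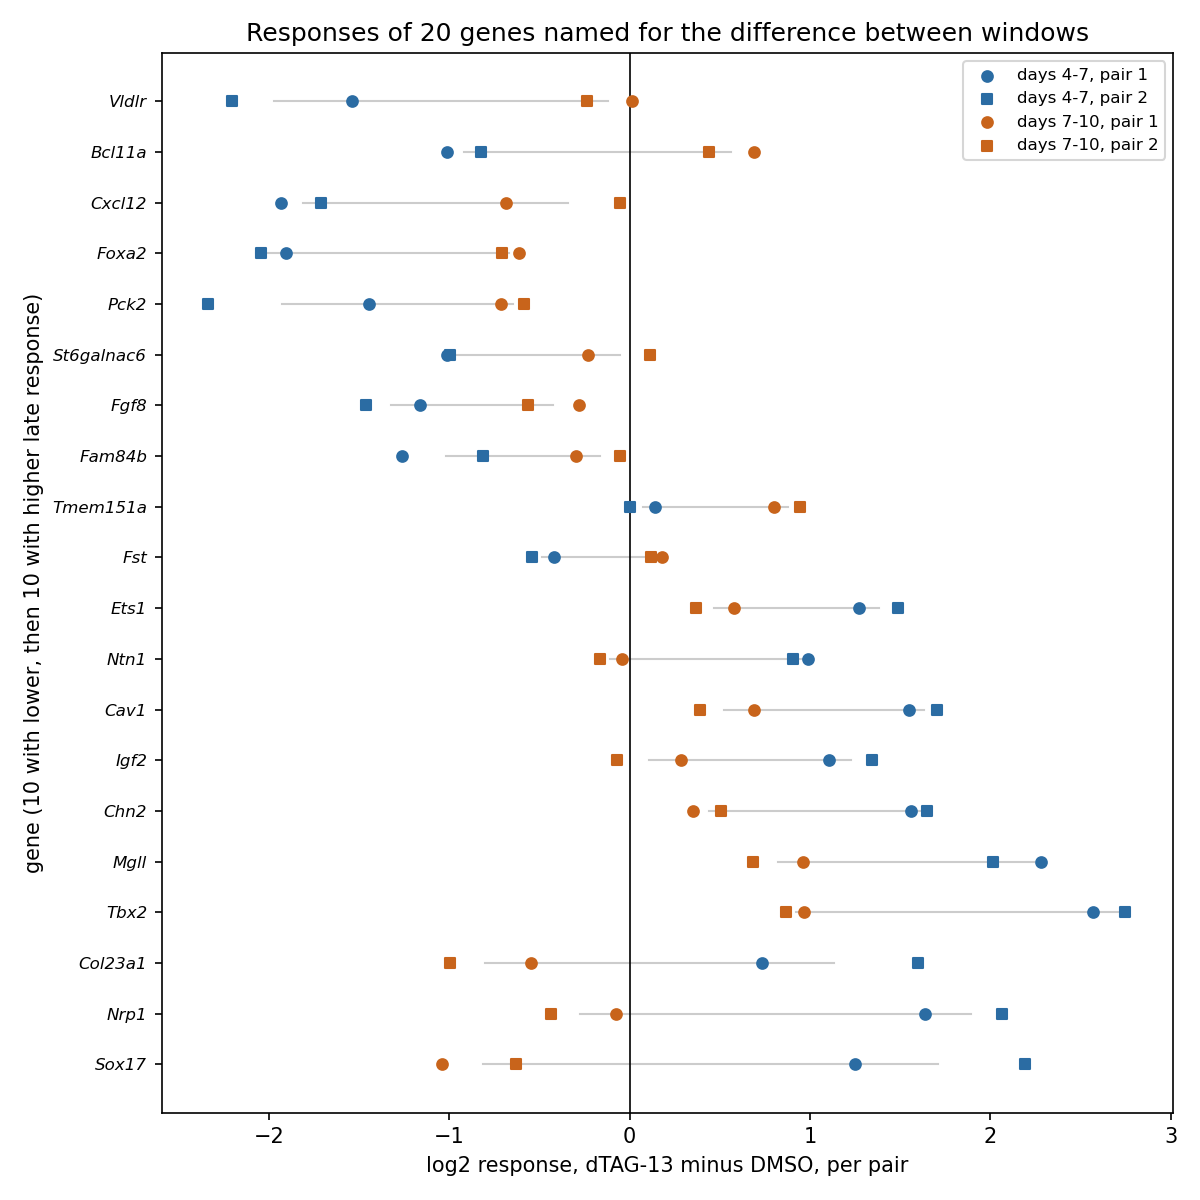
Log2 response of each pair for the 20 genes with the smallest p of the difference, 10 in each direction, with days 4-7 in blue, days 7-10 in orange, circles for pair 1, squares for pair 2 and a grey line between the fitted responses. Separation of blue from orange was part of the choice of genes, and for Sox17 and Col23a1 the 2 colours lie on opposite sides of 0.

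Across all tested genes 5 were called in opposite directions, and they are named after their values were seen. Besides Sox17 and Col23a1, these were the Wnt inhibitor gene Dkk1 (0.83 and -0.64), the chemokine receptor gene Ackr3 (0.84 and -0.62) and Ctla2a (-1.99 and 1.98). Ackr3 encodes a scavenging receptor for the chemokine made from Cxcl12. Dkk1 stood at 0.991 and 1.25 CPM with DMSO and 1.42 and 2.58 CPM with dTAG-13 on day 7, and at 12 and 11.9 CPM and 7.84 and 7.52 CPM on day 10. Ctla2a stood at 0.106 to 1.14 CPM in all 8 libraries, near the floors, so its values are imprecise. The heart and limb regulator Hand2, which had a difference of -3.42 (adjusted p = 0.116), stood at 0.34 and 0.192 CPM with DMSO and 0.474 and 0.92 CPM with dTAG-13 on day 7, and fell on day 10 from 3.14 and 7.16 to 0.98 and 1.51 CPM. The early response of Hand2 was not called. Pdgfra, a receptor of mesoderm and primitive endoderm, fell late, from 11.5 and 21.2 to 5.23 and 8.74 CPM (-1.22), and was not called early (0.21). Its difference was not called (adjusted p = 0.208). The 2 endoderm markers in both tables, Sox17 and Foxa2, summed to 4.08 to 6.06 CPM with DMSO and 3.11 to 3.95 CPM with dTAG-13 on day 7, and to 32.6 to 35.9 CPM and 20.3 to 20.5 CPM on day 10. The sum hides opposite responses on day 7, where Sox17 rose by 1.71 and Foxa2 fell by 2.07, while both fell on day 10. In bulk libraries fewer cells of a type and less RNA per cell cannot be told apart.

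Lists of related genes are described by counts and medians. They are to be read beside all tested genes, of which 12.9% rose and 9.19% fell early and 8.45% rose and 5.93% fell late, and for which the median response was -0.01 early and 0.00 late and the median difference 0.00. Some lists lost members that the late table lacks. In both tables were 24 of 39 listed Hox genes, 21 of 28 endoderm genes and 37 of 58 clustered protocadherins. Counts and medians are those of the tested members only. Of 23 tested Hox genes 14 rose early (60.9%) and 16 rose late (69.6%), 12 of them in both windows, and none fell. Their median response was 1.65 and 1.90 in the early pairs and 1.27 and 1.09 in the late pairs. The late response was below the early one in 17 of 23, with a median difference of -0.60, which became -0.90, -0.37, -0.88 and -0.37 without early pair 1, early pair 2, late pair 1 or late pair 2. Hoxc13, a posterior Hox gene, stood at 1.76 and 2.01 CPM with DMSO and 5.84 and 10.9 CPM with dTAG-13 on day 7, and at 2.25 and 5.25 CPM and 4.98 and 9.03 CPM on day 10. Its groups were separate early and overlapped late, although each late pair moved up, and it rose by 2.10 and 0.91. Hoxb9 rose by 1.67 and 0.61, while Hoxb1 rose by 2.52 and 1.99. Hoxd1 and Hoxb7 had a higher late response (0.69 and 1.25, 1.85 and 3.56), the latter at or below 0.774 CPM in every library. In 4 of the 23 the mean of the day 7 DMSO libraries was at or under the floor, so their fold changes are imprecise.

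Other regulators that Polycomb represses in stem cells gave a like picture with more exceptions. Of 59 tested, 25 rose and 3 fell early and 17 rose and 4 fell late, where the falls were near or below the shares over all genes. The late response was below the early one in 43, and their median went from 0.67 to 0.23. Besides Tbx2, the group held Msx2, a homeobox gene of mesenchyme and trophoblast, which rose by 0.91 early and had a response of 0.14 late. The median difference of -0.40 became -0.17 without late pair 2 and lay between -0.51 and -0.30 without each of the others. Of 35 genes for Polycomb components 3 rose and 4 fell early and none rose and 2 fell late, at or below the shares over all genes apart from the early falls, which were close to theirs. Ezh2, the methyltransferase of the PRC2 complex, had responses of -0.02 and -0.11.

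The 2-cell-like genes, which mark a rare totipotent-like state of stem cells, rose in both windows. Of 23 tested 22 rose early and 19 late, all 19 also early. Zscan4c went from 2.24 and 1.01 to 18.8 and 13.3 CPM on day 7 and from 1.67 and 0.901 to 7.68 and 3.39 CPM on day 10, with responses of 3.30 and 2.08 (difference -1.22, adjusted p = 0.338). Both late treated libraries lay between the control and treated libraries of day 7. The deubiquitinase gene Usp17la differed less, with 3.95 and 3.89. The list median went from 3.30 to 2.34, and to 2.08 with Gm13078, Tdpoz3 and Usp17ld, which had no count in day 10 DMSO libraries, set to their bound at the floor. The median difference was -0.57 (-0.74 with those bounds), with -0.76, -0.53, -0.75 and -0.39 without early pair 1, early pair 2, late pair 1 or late pair 2. Copies within the Zscan4 and Usp17l families are near-identical, so the division of reads among them is uncertain.

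**Figure D4:**
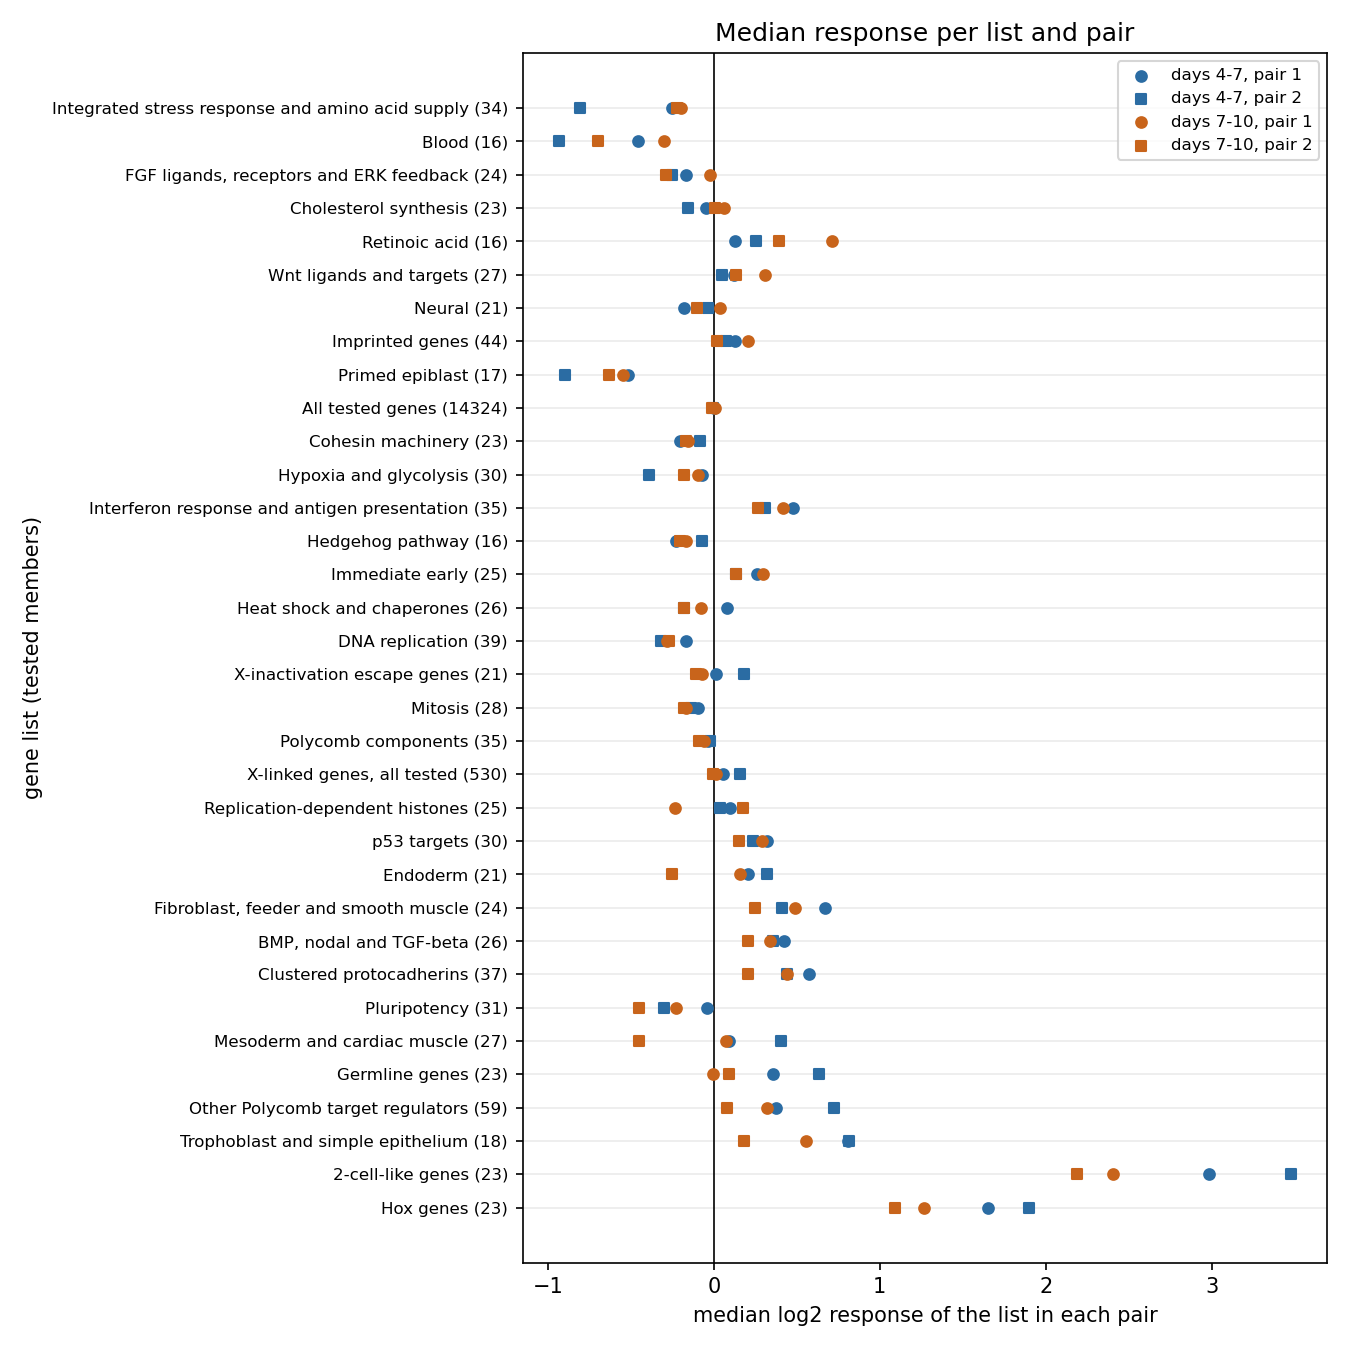
Median log2 response of each gene list with at least 15 tested members in each of the 4 pairs, ordered by the median difference, with days 4-7 in blue and days 7-10 in orange. Hox genes, 2-cell-like genes and germline genes lie further right in both early pairs, and for the stress response list early pair 2 (-0.81) lies apart from the other pairs.

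Pluripotency genes also had a lower late response, on a smaller scale. Of 31 tested 4 rose and 6 fell early, and none rose and 12 fell late, with 5 falls in common. The late response was below the early one in 28 of 31, and both late pairs lay below both early pairs in 14 (45.2%, against 18.1% of all tested genes). Tbx3, a T-box regulator that is also in the Polycomb target list, stood at 12.7 and 9.98 CPM with DMSO and 17.2 and 18.8 CPM with dTAG-13 on day 7, and at 28.9 and 49.8 CPM and 27.7 and 30.3 CPM on day 10, where the groups overlapped. It rose by 0.67 early and had a response of -0.42 late. Dppa4 had a response of 0.26 early and fell by 0.33 late. Esrrb fell late, by 0.59, and Zfp42 fell in both windows, by 0.47 and 0.84. Of the core factors Sox2 fell by 0.43 and 0.54, and Pou5f1 and Nanog were called in neither window. Pou5f1 stood at 755 and 750 CPM with DMSO and 793 and 512 CPM with dTAG-13 on day 7. On day 10 it stood at 686 and 408 CPM and at 539 and 276 CPM. Its early pairs thus went opposite ways and both late pairs went down, while Nanog was lower with dTAG-13 in every pair. The list median went from -0.14 to -0.33. By pair it was -0.04 and -0.30 early and -0.23 and -0.45 late, so the pair medians of the windows overlapped. The median difference of -0.26 became -0.08, -0.41, -0.36 and -0.13 without early pair 1, early pair 2, late pair 1 or late pair 2. Germline genes had 7 rises and 2 falls early and 2 rises and 1 fall late of 23, the late counts and early falls near the shares over all genes, with median responses of 0.46 and 0.08. Sycp2, a synaptonemal complex gene, rose by 1.25 early and had a response of 0.24 late.

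Among trophoblast and simple epithelium genes most members were called early and fewer late. Of 18 tested 13 rose and 1 fell early, and 7 rose and 1 fell late, the fall being Eomes both times (-1.49 and -0.87). The late response was below the early one in 17 of 18. Hand1, a regulator of trophoblast giant cells and heart mesoderm, stood at 10.1 and 11 CPM with DMSO and 24.1 and 29.7 CPM with dTAG-13 on day 7, and at 28.1 and 40 CPM and 42.8 and 44 CPM on day 10 (1.35, called, and 0.36, not called). The keratin gene Krt7 rose by 1.54 and 0.78, Krt18 by 1.24 and 0.65, and Gcm1, a syncytiotrophoblast regulator, had responses of 0.90, called, and 0.11, not called. The list median went from 0.86 to 0.37, with a median difference of -0.40 (-0.28 to -0.56 when each pair was left out). Of the 4 trophoblast markers only Cdx2 was in both tables, at 1.63 to 3.37 CPM with DMSO and 3.86 to 5.92 CPM with dTAG-13 on day 7 and at 15.5 to 17.5 CPM and 23.9 to 28.9 CPM on day 10.

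Of 27 mesoderm and heart genes 7 rose and 3 fell early and 5 rose and 5 fell late, and of 21 endoderm genes 6 rose and 2 fell early and none rose and 5 fell late. The early falls of both lists were near the 9.19% over all genes. The mesoderm median was 0.31 early and -0.22 late, with 0.09 and 0.40 in the early pairs and 0.07 and -0.45 in the late pairs. The median difference of -0.36 became -0.08 without early pair 1 and -0.16 without late pair 2. T, the brachyury gene of nascent mesoderm, had a response of 0.27 early and rose by 0.54 late. Fibroblast and smooth muscle genes had 14 rises and 2 falls early and 10 rises and 2 falls late of 24. All 6 fibroblast and feeder markers were measured, and their sum was 195 and 208 CPM with DMSO and 616 and 445 CPM with dTAG-13 on day 7, and 371 and 526 CPM and 663 and 716 CPM on day 10. Acta2, smooth muscle actin, made up most of that sum and rose by 1.74 and 0.83, Col1a1 rose by 0.73 early and had a response of 0.13 late, and the marker Thy1 was lower with dTAG-13 in every pair. This sum moved with treatment in both windows, beside the surface and matrix genes above, and its part in their responses was not tested.

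In the integrated stress response cells limit protein synthesis and induce amino acid supply. No gene of its list passed the test of the difference. Of 34 tested genes 19 fell early (55.9%, against 9.19% of all tested genes) and 6 fell late (17.6%, against 5.93%), and none rose in either window. The late response was above the early one in 31 of 34. Chac1, a glutathione-degrading enzyme gene, stood at 22.4 and 35.3 CPM with DMSO and 8.37 and 5.06 CPM with dTAG-13 on day 7, and at 7.8 and 7.56 CPM and 5.72 and 3.39 CPM on day 10. It fell by 2.17 early and had a response of -0.82 late. Trib3, a feedback inhibitor of the pathway, fell by 1.39 early and had a response of -0.31 late. The glycine transporter gene Slc6a9 fell by 1.20 early and had a response of -0.21 late, while Slc7a5, which encodes an amino acid carrier, had falls of 1.00 and 0.47. Atf4, the transcription factor of the pathway, was called in neither window (-0.33 and -0.20). The pairs did not contribute evenly: the list median was -0.25 in early pair 1, -0.81 in early pair 2, -0.20 in late pair 1 and -0.22 in late pair 2. The median difference of 0.31 became 0.56 without early pair 1 and 0.02 without early pair 2, so the size of this difference rested on early pair 2.

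Other lists showed smaller or no shifts in count between the windows. Over all tested genes the shares were 12.9% rising and 9.19% falling early and 8.45% and 5.93% late. Of 17 primed epiblast genes 11 fell in each window, 9 in both, with medians of -0.73 and -0.59, and Fgf15 fell by 1.63 and 1.44. Of 39 DNA replication genes 12 fell early and 15 late and none rose, with medians of -0.24 and -0.29. Of 37 clustered protocadherin genes 22 rose early and 20 late, with medians of 0.51 and 0.32, but many of them share 3′ exons and do not count as separate genes. Of 35 interferon response genes 14 rose and 2 fell early and 12 rose and 1 fell late, where falls were below those shares. Ifit3 was near the floor early (0.079 to 0.192 CPM) and rose late from 0.314 and 0.15 to 3.1 and 1.18 CPM. Of 11 DNA methylation enzyme genes 1 rose and 2 fell early and 1 rose and 3 fell late, the rises near or below those shares. The median difference of these 11 genes was 0.01. Among them Dnmt3l, a cofactor of DNA methylation that marks germ cells and naive stem cells, stood at 189 and 129 CPM with DMSO and 272 and 165 CPM with dTAG-13 on day 7, and at 157 and 81.5 CPM and 135 and 63.3 CPM on day 10. It rose by 0.44 early and had a response of -0.29 late (difference -0.73, adjusted p = 0.117). Of 16 retinoic acid genes 6 rose and 3 fell early and 7 rose and 2 fell late. Aldh1a1, which makes retinoic acid, rose by 3.73 and 1.70, from 0.594 and 0.576 to 6.95 and 9.2 CPM on day 7 and from 1.15 and 3.15 to 6.54 and 7.45 CPM on day 10.

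X-linked genes were set apart because the series title names X inactivation, in which Xist RNA coats and silences 1 X chromosome. More X-linked genes were called as rising early than late. Of 530 tested genes, without Xist and Tsix, 107 rose (20.2%) and 45 fell early, and 45 rose (8.49%) and 45 fell late. Early rises on single autosomes ran from 9.66% to 20.5% (chromosome 18), and late rises from 5.58% to 15.5% (chromosome 18). The median X-linked response was 0.05 and 0.16 in the early pairs and 0.01 and -0.00 in the late pairs, so early pair 2 lay above the other pairs. The median difference was -0.10, against -0.02 to 0.01 on single autosomes. It kept its sign without each pair, at -0.17, -0.05, -0.10 and -0.10. Both late pairs lay below both early pairs in 157 X-linked genes (29.6%) and above them in 41 (7.74%). On single autosomes these shares were 14.4% to 21.8% and 12.2% to 19.7%.

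Among the X-linked genes with the smallest p of the difference, chosen after their values were seen, were Stard8 (0.87 and 0.17), Morc4 (0.64 and 0.04) and Col4a5, a basement membrane collagen gene (1.33 and 0.46). Stard8 stood at 34.8 and 28.8 CPM with DMSO and 55.7 and 60.6 CPM with dTAG-13 on day 7, and at 56.9 and 84.8 CPM and 68.8 and 89 CPM on day 10. None of these differences was called (adjusted p = 0.208 to 0.301). Xist itself varied between pairs: it stood at 707 and 971 CPM with DMSO and 390 and 1051.5 CPM with dTAG-13 on day 7, and at 434 and 1096.5 CPM and 358 and 983 CPM on day 10. It was called in neither window (-0.37 and -0.22), and its relation to the X-linked responses was not tested. Tsix stood at 18.1 to 30.1 CPM in all libraries and was called in neither window. The tables hold no counts per allele, so the active and inactive X were not separated here.

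**Figure D5:**
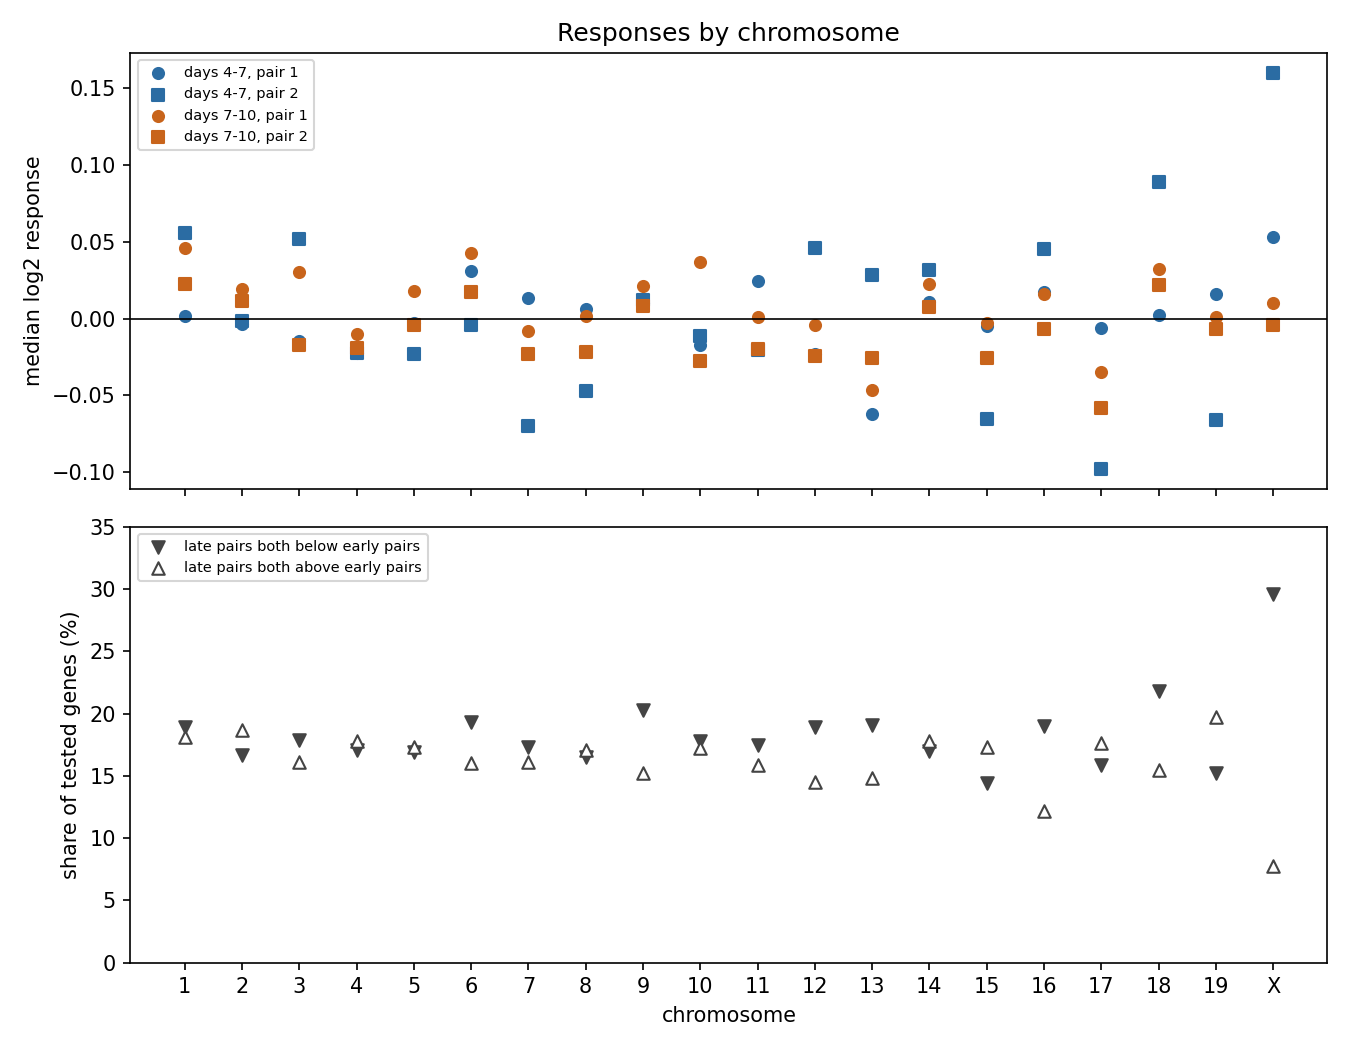
Upper panel: median log2 response of the tested genes of each chromosome in each pair (blue for days 4-7, orange for days 7-10). Lower panel: percentage of genes whose late pair responses both lie below (filled) or above (open) both early ones, where the X chromosome stands at 29.6% and 7.74%.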

How the data were processed

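The data are raw counts per gene from 8 poly(A) RNA-seq libraries, as deposited by the authors in 2 tables and not normalized, which the whole numbers and unequal totals of the columns bear out. Per the submitters' processing notes the tools included TopHat2, Bowtie2, Novoalign, DESeq, DESeq2 and HOMER, and the builds mm9, dm6 and hg19, with no roles or versions. How reads were counted, and whether by strand, is not given in the sources used here, so antisense partners such as Xist and Tsix may share reads. The late table looks filtered on genes, which no header states. The groups came from the sample titles.

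For genes in both tables the model was edgeR's quasi-likelihood fit (edgeR 4.0.16, R 4.3.3) after TMM scaling and filterByExpr, whose minimum count was 10. Calls had a Benjamini-Hochberg adjusted p under 0.05. The fit had 1 term for each of the 4 pairs and 2 residual degrees of freedom. CPM are counts scaled to the TMM-adjusted library size, and pair responses used a prior count of 2. In the labels same-numbered libraries share only a number. As a check of pairing, the deviations from the group mean of a DMSO library and its same-numbered partner had r of 0.44 early and 0.76 late, 1 value per window. Replicates differed beyond sampling noise (chi-square per gene 13.6 to 55.3).

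Members and gene lists were chosen with earlier results of these data known. Named genes are, per direction, the 12 with the smallest p of the difference and separate pair responses. To these come the 10 genes of 1 sign in all pairs with the largest smallest pair response. Both had log2 CPM averaging 2 or more and left out predicted genes, RIKEN clones and small RNAs. Then come up to 3 members of each list by p, and a set of 30 regulators. Alternatives were other scalings and filters, DESeq2 1.42.0, voom of limma 3.58.1, other block designs and leaving out each pair or library. The fit was tested on simulated data. Figures were drawn with matplotlib 3.10.9. Clone H2 and the other assays were not used here. Some named genes are not reported here.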

Additional observations from a re-analysis of the deposited data

Results flagged for a closer look

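Nrp1 was the gene whose response differed between the windows by a test of the difference itself: days 7-10 minus days 4-7 gave -2.17 on the log2 scale (edgeR quasi-likelihood test, adjusted p = 0.0124). When each pair was left out the difference ran from -1.98 to -2.41. The late response was below the early one in both late pairs (-0.07 and -0.44, against 1.64 and 2.07). The call was lost without the pair terms and with a replicate block shared by both windows.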

How the results depend on the processing

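The 24 genes ranked for the difference were chosen for separate pair responses, which fixes their direction when a pair is left out, so that says nothing of stability. With RLE scaling or library totals Nrp1 alone passed the threshold, as in the main fit, and DESeq2 passed more of them. With no replicate block none passed (Nrp1 -2.25, adjusted p = 0.9999, with edgeR). Passes in fits without 1 pair are not counted, since those fits leave a window with 1 pair. With no replicate block the counts of genes differing between windows, changed early and changed late were 0, 171 and 0, against 1, 3169 and 2059 with it. With a replicate block shared by both windows, which for the early and late counts was chosen after seeing the data, they were 0, 1807 and 776, and with DESeq2 15, 1674 and 864. Without a filter on low counts 5 genes differed between windows, and the late window fitted alone, on genes of its own table, gave 5141 calls. Leaving out 1 pair or library gave 0 to 1147, 0 to 5473 and 0 to 5402 calls. These ranges pool fits with and without pair terms, so they do not measure stability. The upper ends came from a fit without 1 pair, with pair terms, where the spread of the window with 1 pair was not measured. The fits without 1 library had no pair terms, and the lone library was assumed to vary like the other groups. RLE scaling, library totals and voom kept all 3 counts within 1.5 times. Of 37 medians of the difference, over lists, X-linked genes and all genes, 19 kept their sign under every alternative run. By more than the spread between pairs, 16 of 259 alternative medians moved. That spread is wide by construction against the shift from leaving out a pair, so this count says little of stability.

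The medians that changed sign under at least 1 alternative belonged to 18 groups, among them primed epiblast, cohesin machinery, imprinted genes, replication-dependent histones (-0.73 to 0.18) and hypoxia and glycolysis (-0.17 to 0.20). With 2 residual degrees of freedom and 2 pairs a window, differences that did not pass are not shown to be absent.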

Other observations

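Further gene lists are given as counts and medians, beside shares over all tested genes of 12.9% rising and 9.19% falling early and 8.45% and 5.93% late. Of 26 BMP, nodal and TGF-beta genes 11 rose and 1 fell early and 6 rose and 3 fell late, and the late response was below the early one in 21. Bmp4, a ligand that drives mesoderm and trophoblast fates, rose by 1.31 and 0.62. Of 30 p53 targets 15 rose early and 6 late and none fell, with median responses of 0.29 and 0.24. Of 23 cholesterol synthesis genes 3 fell and none rose early and 1 rose and 1 fell late, with the late response above the early one in 19, the counts of falls near the shares over all genes, and a median difference of 0.09. Of 16 blood genes 2 rose and 7 fell early and 2 rose and 4 fell late, but the median difference of 0.11 became -0.13 without late pair 1. Of 16 Hedgehog pathway genes 2 rose and 6 fell early and 5 fell late, all of which had fallen early.

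Of 27 Wnt ligands and targets 7 rose in each window, only 2 of them in both, while 3 fell early and 5 late. Of 24 genes of FGF signalling 8 fell and 1 rose early and 7 fell late, 6 of them in both. Of 44 imprinted genes 13 rose and 4 fell early and 11 rose and 3 fell late, with a median difference of 0.01. Lmo2, a regulator of blood and vessel progenitors, stood at 2.77 and 1.73 CPM with DMSO and 2.29 and 1.49 CPM with dTAG-13 on day 7. It rose on day 10 from 4.24 and 2.35 to 8.91 and 6.3 CPM, by 1.23, whereas its early response was -0.25 and was not called.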
